A study of Mus musculus with 2 samples.

Results

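The genes described are 10 members of the major histocompatibility complex (MHC) class I antigen presentation pathway, among 32285 genes counted. They were chosen by name: B2m, H2-K1, H2-D1, H2-Q7, H2-T22, H2-T23, Tap1, Psmb8, Psmb9 and Nlrc5. They were followed in 2 single-cell RNA libraries of mouse CD4 T cells, 1 library per group. In both groups the donors were wild-type mice sensitised with extract of house dust mite (HDM), an airway allergen, on day 0 and days 7 to 11. Their lung CD4 T cells were taken on day 14, labelled with Cell Trace Violet (CTV), a dye diluted at each division, and transferred into MARCH1-/- hosts or WT (C57BL/6) hosts. All hosts then received an HDM challenge, and 4 days later the CTV low donor cells in the lung, which had divided, were collected by sorting. MARCH1 is a ubiquitin ligase of antigen-presenting cells that removes MHC class II from the cell surface. The deletion is in the host and not in the sequenced donor cells. How many mice each library pooled, and the age and sex of the mice, are not given in the sources used here. With 1 library per group every difference is between 2 libraries, has no replicate check and carries no p-value.

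Class I molecules show peptides from inside the cell to CD8 T cells. The proteasome cuts the peptides, and its catalytic subunits are exchanged for the immunoproteasome subunits Psmb8 and Psmb9 under interferon. The transporter subunit Tap1 carries the peptides into the endoplasmic reticulum, where they bind a heavy chain paired with the light chain B2m. H2-K1 and H2-D1 encode the classical heavy chains, and H2-Q7, H2-T22 and H2-T23 encode nonclassical ones. Nlrc5 encodes the transcriptional activator of these genes, which acts at the X and Y boxes of their promoters, and interferon-regulated factors act at a response element nearby. T cells express the pathway themselves, as nearly all nucleated cells do.

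Promoter windows of the members are shown because genes with much alike promoters differed in their host ratio, as given further on. RefSeq (build GRCm38.p6) held a window of 300 bases, 250 before and 50 after the gene start, for 9 of the 10 members. Capitals mark the matches, on either strand, to 4 motifs: the interferon-stimulated response element core (GAAA and GAAA with any 2 bases between them), a shorter form of it (GAA and GAAA with any 2 bases between them), the X2 box core TGACG and the Y box core CCAAT. The windows of B2m (chr2:122147437-122147736, plus strand), H2-K1 (chr17:34000298-34000597, minus strand), H2-D1 (chr17:35262844-35263143, plus strand), Tap1 (chr17:34187306-34187605, plus strand) and Psmb8 (chr17:34197945-34198244, plus strand) read as follows.
B2m: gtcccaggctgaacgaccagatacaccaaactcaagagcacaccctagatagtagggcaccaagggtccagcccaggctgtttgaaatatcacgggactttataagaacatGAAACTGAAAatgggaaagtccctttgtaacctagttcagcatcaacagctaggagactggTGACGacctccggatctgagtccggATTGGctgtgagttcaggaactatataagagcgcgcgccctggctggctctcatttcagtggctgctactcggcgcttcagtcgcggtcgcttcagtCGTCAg
H2-K1: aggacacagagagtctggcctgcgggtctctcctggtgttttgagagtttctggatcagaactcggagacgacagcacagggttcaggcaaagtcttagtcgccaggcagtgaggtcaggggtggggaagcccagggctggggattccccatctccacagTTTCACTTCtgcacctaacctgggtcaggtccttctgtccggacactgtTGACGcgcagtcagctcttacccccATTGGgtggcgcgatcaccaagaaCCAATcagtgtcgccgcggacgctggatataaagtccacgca
H2-D1: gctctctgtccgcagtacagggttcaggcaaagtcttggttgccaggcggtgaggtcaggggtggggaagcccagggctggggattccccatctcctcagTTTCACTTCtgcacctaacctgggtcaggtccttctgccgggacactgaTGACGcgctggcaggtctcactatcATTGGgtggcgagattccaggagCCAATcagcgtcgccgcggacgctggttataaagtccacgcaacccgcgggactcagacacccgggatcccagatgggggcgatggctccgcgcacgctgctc
Tap1: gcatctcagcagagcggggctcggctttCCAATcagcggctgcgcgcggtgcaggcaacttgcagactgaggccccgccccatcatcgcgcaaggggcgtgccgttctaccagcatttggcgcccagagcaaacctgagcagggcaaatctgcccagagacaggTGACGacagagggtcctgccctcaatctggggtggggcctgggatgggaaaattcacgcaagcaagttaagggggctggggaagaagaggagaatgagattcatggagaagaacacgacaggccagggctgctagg
Psmb8: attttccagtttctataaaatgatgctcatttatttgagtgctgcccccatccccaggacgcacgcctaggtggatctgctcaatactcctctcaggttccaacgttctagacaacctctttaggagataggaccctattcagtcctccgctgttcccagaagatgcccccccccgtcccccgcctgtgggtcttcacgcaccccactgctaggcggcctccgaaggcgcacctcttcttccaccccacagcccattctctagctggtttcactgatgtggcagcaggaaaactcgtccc

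The windows of H2-K1 and H2-D1 were 88.3% identical over 239 aligned bases, with the shorter form of the response element core, the X2 box core and Y box cores in the same order. Of the 9 member windows, 3 held the response element core (B2m, H2-T22 and H2-T23), against 3.49% of the windows of all 27025 gene symbols in the table. The shorter form was in 3 (H2-K1, H2-D1 and H2-Q7), against 7.56% of all windows. TGACG was in 7 member windows and 21.02% of all windows, and CCAAT in 8 and in 37.9%. A response element core of either form together with both boxes was found in 5 of the 9 and in 0.685% of all windows. The window of Psmb8 held none of the 4 motifs. That window lies wholly inside the gene as the GENCODE annotation places it (start 34197721), so the sequence before that start was not searched. The windows of H2-D1 and Psmb9 also lie wholly inside their GENCODE genes. The Tap1 and Psmb9 windows share 275 bases on opposite strands, since the RefSeq start sites of these 2 genes lie 226 bases apart. These matches are descriptions of letters in a window, not of binding.

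After filtering, the MARCH1-/- host library held 156 cells with a median of 8017 unique molecular identifiers (UMIs, each a captured transcript), and the WT host library held 352 cells with a median of 6086.5. The cells held 1575581 UMIs in the MARCH1-/- host library and 2571048 in the WT host library, and no cell barcode was shared. No barcode of either library held a UMI of March1, where 0 allows up to 1.90 CPM in cells from the MARCH1-/- host and 1.17 CPM in those from the WT host (a floor of 3 counts). Since the donors were wild type in both groups, this checks nothing about the hosts. All 12 CD4 T cell markers were detected in each library, at 6180 counts per 1000000 UMIs (CPM) in the MARCH1-/- host library and 4691 in the WT host library. B cell markers summed to 104 CPM in the MARCH1-/- host library (3 of 7 detected, with Ms4a1, Igkc and Ighd among those at 0) and 22.9 CPM in the WT host library (4 of 7, with Ms4a1 and Ighd among those at 0). The ratios without cells that hold such UMIs are given with the class II genes. Markers of macrophages, monocytes and dendritic cells summed to 241 CPM in the MARCH1-/- host library (6 of 10, with Csf1r, Adgre1, Itgax and Flt3 at 0) and 215 CPM in the WT host library (4 of 10, with those and Lyz2 and Fcer1g at 0). Ribosomal protein genes made up 22.7% of UMIs from the MARCH1-/- host and 27.7% from the WT host.

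Cells were placed in classes by marker UMIs, which are ranges and not cell types. Cycling cells, with a UMI of at least 3 of 15 mitotic and S phase genes, were 65 of 156 (41.7%) in the MARCH1-/- host library and 109 of 352 (31.0%) in the WT host library. Near that limit, with 2 or 3 of the genes, lay 15 and 8 cells from the MARCH1-/- host and 26 and 19 from the WT host. The non-cycling cells split by at least 1 UMI of their markers. From the MARCH1-/- host and the WT host, 23 and 61 had type 2 cytokines (Il4, Il5, Il13), 13 and 20 had Foxp3, and 4 and 32 had type 1 genes (Ifng, Ccl5, Tbx21). Markers of more than 1 kind were seen in 8 and 38, and none in 34 and 65, called marker-negative. A deeper cell is more likely to show a marker: the median was 13910 UMIs in cycling against 5896 in non-cycling cells of the MARCH1-/- host library, and 10720 against 4692 in the WT host library.

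The class I genes together took a larger share of the transcripts in cells from the MARCH1-/- host, and the members with the larger ratios were H2-D1, Psmb8, Psmb9 and H2-T23. The 10 members summed to 12252 UMIs or 7776 CPM (95% interval 7639 to 7915) in the MARCH1-/- host library and 14967 UMIs or 5821 CPM (5728 to 5915) in the WT host library, a log2 ratio of 0.42 (0.38 to 0.45). All intervals cover counting error only, not differences between animals or preparations. The median of all 6762 genes with at least 50 UMIs was itself shifted, by 0.25, and ratios called relative have this shift subtracted. The relative ratio of the sum was 0.17, and it rests on H2-D1: without that gene, left out after these values were seen, the sum had a log2 ratio of 0.26, or 0.0063 relative, and without all 5 heavy chains the relative ratio was -0.027. All 10 members had at least 50 UMIs, and their median log2 ratio was 0.38, or 0.13 relative, against a median gene at 0 by construction. In barcodes with 10 to 100 UMIs, which hold free RNA, the members summed to 6974 CPM (5859 to 8239, from 138 UMIs) in the MARCH1-/- host library. The WT host library had 5944 CPM (5775 to 6116, from 4696 UMIs), so the intervals overlap and no order is read. No class of these cells lacks class I genes, so a background share of cells cannot be read, and free RNA's part in the ratios was not tested.

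**Figure D1:**
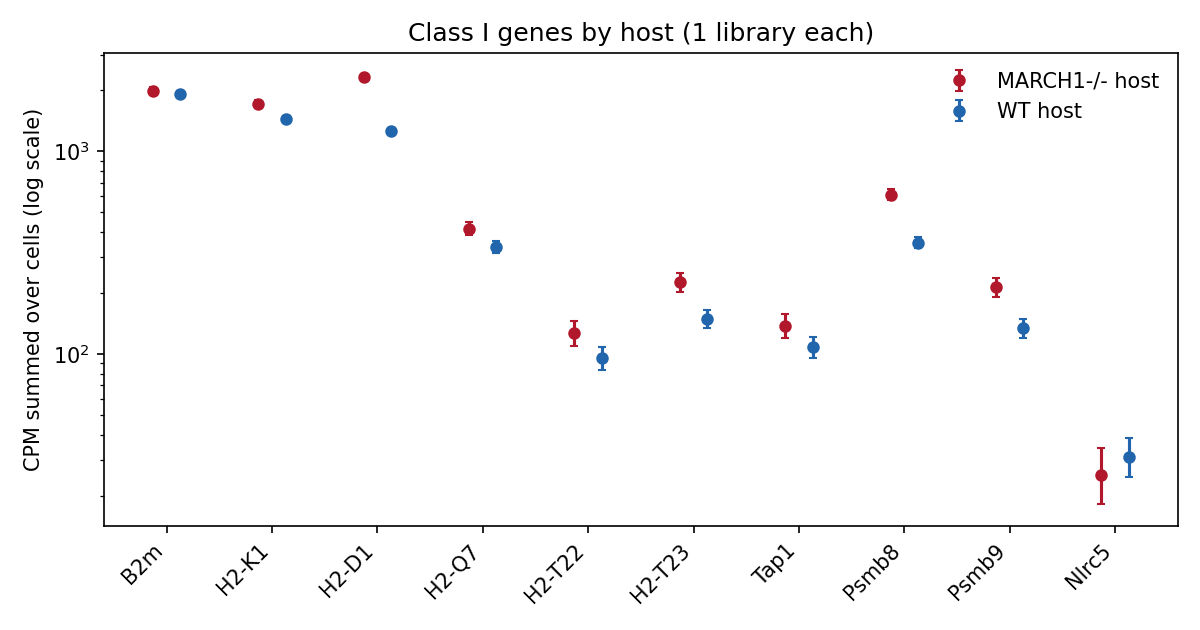
Summed level of each class I gene in cells from the MARCH1-/- host (red, left of each pair) and the WT host (blue), in CPM on a log axis; points are single libraries and bars are 95% counting intervals. H2-D1 has the widest gap among the abundant genes (2315 and 1255 CPM), and B2m points lie close together (1993 and 1921 CPM).

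H2-D1, a classical heavy chain (chromosome 17, 35262730 to 35267499, GRCm38), had 3647 UMIs or 2315 CPM in the MARCH1-/- host library and 3226 UMIs or 1255 CPM in the WT host library. Its log2 ratio was 0.88 (0.81 to 0.95), or 0.63 relative, at the 89.3 percentile of all genes tested. The middle 50% of cells ran from 1754 to 3534 CPM in the MARCH1-/- host library and from 939 to 1875 CPM in the WT host library, so the ranges of single cells overlap. After each cell was thinned to 1000 UMIs, which 156 of 156 and 341 of 352 cells reach, a UMI of H2-D1 is expected over all draws in 89.5% of cells from the MARCH1-/- host and 73.7% from the WT host. The single draw made gave 84.6% in the MARCH1-/- host library and 73.6% in the WT host library, and the unthinned shares were 100% and 99.4%.

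H2-K1, the other classical heavy chain (chromosome 17, 33996017 to 34000347), differed less. It had 2702 UMIs or 1715 CPM in the MARCH1-/- host library and 3697 UMIs or 1438 CPM in the WT host library. Its log2 ratio of 0.25 (0.18 to 0.33) equals the shift of the median gene, so its relative ratio was 0.00. Its shares of cells expected over all draws of 1000 UMIs were 80.2% in the MARCH1-/- host library and 74.96% in the WT host library. The single draw gave the opposite order, 75% in the MARCH1-/- host library and 76.2% in the WT host library, so no order is read from it. Unthinned, the shares were 100% and 99.1%.

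B2m, the light chain shared by all these heavy chains (chromosome 2, 122147686 to 122153083), was nearly level in CPM. It had 3140 UMIs or 1993 CPM in the MARCH1-/- host library and 4938 UMIs or 1921 CPM in the WT host library, a log2 ratio of 0.05 (-0.01 to 0.12). This was -0.20 relative to the median gene, and turned to 0.08 when cells were thinned to 1000 UMIs. B2m was the only member whose interval lay wholly below the median gene.

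Among the nonclassical heavy chains, H2-T23, which encodes Qa-1, a ligand of receptors on NK and CD8 T cells, had 225 CPM in the MARCH1-/- host library and 149 CPM in the WT host library. Its log2 ratio was 0.60 (0.38 to 0.81). H2-Q7, a Qa-2 chain, had 416 CPM in the MARCH1-/- host library and 336 CPM in the WT host library, a log2 ratio of 0.31 (0.16 to 0.46). H2-T22, recognised by some gamma delta T cells, had 127 CPM in the MARCH1-/- host library and 95.3 CPM in the WT host library, a log2 ratio of 0.41 (0.14 to 0.69). The intervals of H2-Q7 and H2-T22 take in the shift of the median gene, while that of H2-T23 lies above it. The last 500 bases of the annotated transcripts, which a 3' kit reads, shared words of 60 bases with other genes in different measure. The share was 51.2% for H2-T22 (with H2-T10, not analysed here), 30.2% for H2-T23 and 9.86% for H2-Q7. It was 6.06% for H2-K1 (5.37% with H2-D1, the gene listed first), 3.56% for H2-D1 and 0% for B2m.

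The immunoproteasome subunits were both higher in cells from the MARCH1-/- host. Psmb8 (chromosome 17, 34197721 to 34201454) had 961 UMIs or 610 CPM in the MARCH1-/- host library and 912 UMIs or 355 CPM in the WT host library, a log2 ratio of 0.78 (0.65 to 0.91). It was expected over all draws in 45.5% of thinned cells from the MARCH1-/- host and 30.5% from the WT host (43.6% and 30.2% in the draw made), and was seen in 98.1% and 82.7% unthinned. Psmb9, on the same chromosome (34181987 to 34187764), had 213 CPM in the MARCH1-/- host library and 134 CPM in the WT host library, a log2 ratio of 0.67 (0.45 to 0.89). Tap1, which shares its start region with Psmb9 on the opposite strand, had 137 CPM in the MARCH1-/- host library and 108 CPM in the WT host library, a log2 ratio of 0.34 (0.08 to 0.60). Their relative ratios were 0.53 for Psmb8, 0.42 (0.20 to 0.64) for Psmb9 and 0.09 (-0.17 to 0.35) for Tap1, so the intervals of the 2 genes that share a start region overlap.

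Nlrc5, the activator (chromosome 8, 94434356 to 94527272), was the least abundant member by UMIs. It had 40 UMIs or 25.4 CPM in the MARCH1-/- host library and 80 UMIs or 31.1 CPM in the WT host library, a log2 ratio of -0.29 (-0.88 to 0.27). The depth does not show which host was higher. Its relative ratio of -0.55 turned to 0.71 when cells were thinned to 1000 UMIs. That draw held a UMI of it in 9 of 156 cells from the MARCH1-/- host and 10 of 341 from the WT host. With classes weighted alike the ratio was 0.15, where type 1 cells of the MARCH1-/- host held 5 UMIs in 4 cells. No direction is read for Nlrc5. Free RNA barcodes held 0 UMIs of it in the MARCH1-/- host library, which at that depth allows up to 186 CPM, and 30 UMIs or 38.0 CPM in the WT host library.

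Relative to the median gene, 1 of the 10 members (H2-D1) was at least 1.5-fold higher in the MARCH1-/- host library, against 12.6% of all genes, and 0 were at least 1.5-fold lower, against 15.1%. The count of members is therefore near the background. Without subtracting the shift, 4 members (H2-D1, Psmb8, Psmb9 and H2-T23) were past 1.5-fold higher, against 25.6% of all genes, and 0 lower, against 8.3%. By counting intervals, 4 members lay above the median gene (the same 4), 1 lay below it (B2m) and the other 5 took it in.

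The ratio of the classical chains to each other does not depend on the scaling. H2-D1 had 1.35 UMIs per UMI of H2-K1 (1.28 to 1.42) in the MARCH1-/- host library and 0.873 (0.832 to 0.915) in the WT host library, 1.55 times as many. Against B2m, H2-D1 had 1.16 UMIs per UMI in the MARCH1-/- host library and 0.653 in the WT host library, 1.78 times as many. The classes compared gave like values: the H2-D1 to H2-K1 ratio was 1.48 and 0.997 in cycling cells of the MARCH1-/- host and the WT host, 1.26 and 0.799 in type 2 cytokine cells, 1.38 and 0.916 in Foxp3 cells, and 1.18 and 0.791 in marker-negative cells. The 4 quotients lie between 1.49 and 1.58. In single cells with at least 10 UMIs of the pair, H2-D1 made up a median of 57.1% (quartiles 50 and 65.6) over 153 cells from the MARCH1-/- host and 47.8% (38.2 and 55.6) over 301 cells from the WT host. H2-D1 exceeded H2-K1 in 73.9% of those cells from the MARCH1-/- host and in 38.9% from the WT host. The cells overlap widely, from 26.7% to 92.9% in the MARCH1-/- host library and from 6.25% to 90.9% in the WT host library.

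**Figure D2:**
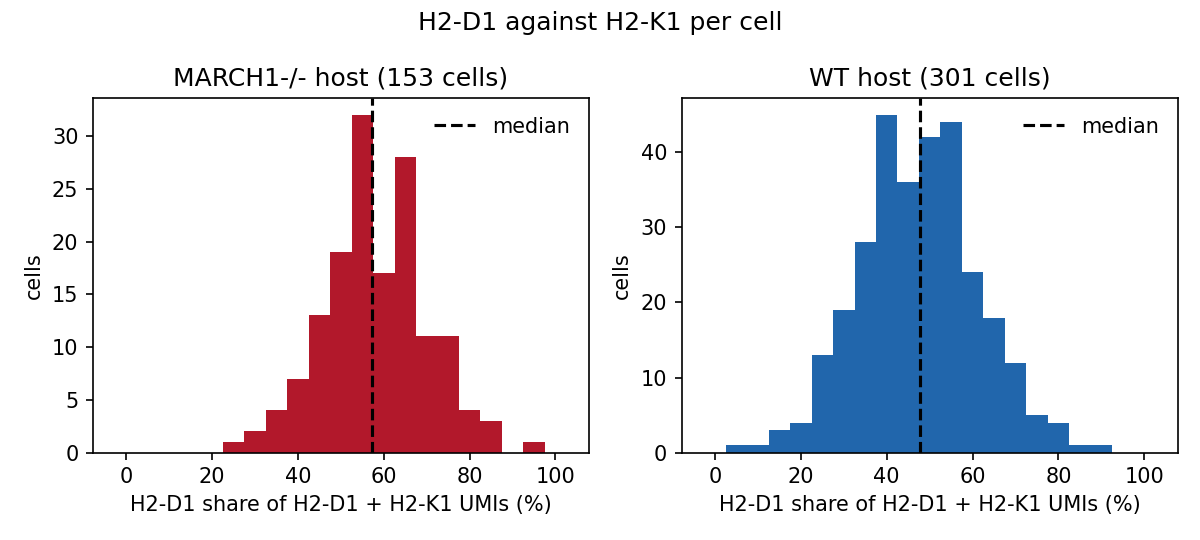
Histograms of the H2-D1 share of the H2-D1 and H2-K1 UMIs of each cell, in percent, for 153 cells from the MARCH1-/- host (left) and 301 from the WT host (right); the y axis counts cells and the dashed line is the median. The medians are 57.1% and 47.8%, and the 2 spreads overlap.

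The host ratio was then taken within the 4 classes that held at least 10 cells from each host, relative to the median gene of each class (0.26 in cycling, 0.15 in type 2 cytokine, 0.08 in Foxp3 and 0.19 in marker-negative cells). H2-D1 had relative log2 ratios of 0.66 in cycling, 0.68 in type 2 cytokine, 1.09 in Foxp3 and 0.94 in marker-negative cells. It was the only member at least 1.5-fold higher in all 4, which held for 2.4% of all genes. H2-K1, H2-D1, H2-T23, Psmb8 and Psmb9 were above the median gene in all 4, so 5 of 10 members against 16.5% of all genes. The members below it in all 4 were 0, against 13.8%. These shares are over all 6762 genes with at least 50 UMIs in all cells, with no minimum within a class. Genes with few UMIs in a class scatter more, so the shares are not matched to the abundant members. H2-K1 lay only just above the median gene in type 2 cytokine (0.01) and cycling cells (0.08). Cells of a class come from 1 library per host, so the classes are not replicates of the host difference.

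H2-T23 had relative ratios of 0.40 in cycling, 0.42 in type 2 cytokine, 1.48 in Foxp3 and 0.58 in marker-negative cells, where the Foxp3 value rests on 36 UMIs from the MARCH1-/- host and 15 from the WT host. Psmb8 had 0.59, 0.42, 0.995 and 0.26 in the same order of classes. Psmb9 had 0.31, 0.19, 0.48 and 0.76. B2m was on both sides of the median gene, at -0.18 (-0.28 to -0.09) in cycling and -0.11 in type 2 cytokine cells, and at 0.22 in Foxp3 and 0.29 (0.11 to 0.48) in marker-negative cells. That the B2m ratio differs between classes was not tested.

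Members with at least 50 UMIs in a class were counted past 1.5-fold. In cycling cells 2 of 9 were higher (H2-D1 and Psmb8), against 12.9% of genes, and 0 lower, against 17%. In type 2 cytokine cells 1 of 9 was higher (H2-D1), against 17.1%, and 0 lower, against 20.4%. In Foxp3 cells 3 of 6 were higher (H2-D1, H2-T23 and Psmb8), against 19.7%, and 0 lower, against 22.1%. Marker-negative cells had 2 of 9 higher (H2-D1 and Psmb9), against 17.7%, and 0 lower, against 20.8%. All non-cycling cells together had 2 of 10 higher (H2-D1 and Psmb9), against 13.5%, and 0 lower, against 16.3%. The Foxp3 class is small, 13 cells from the MARCH1-/- host and 20 from the WT host, and 4 members (H2-T22, Tap1, Psmb9 and Nlrc5) had under 50 UMIs there.

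**Figure D3:**
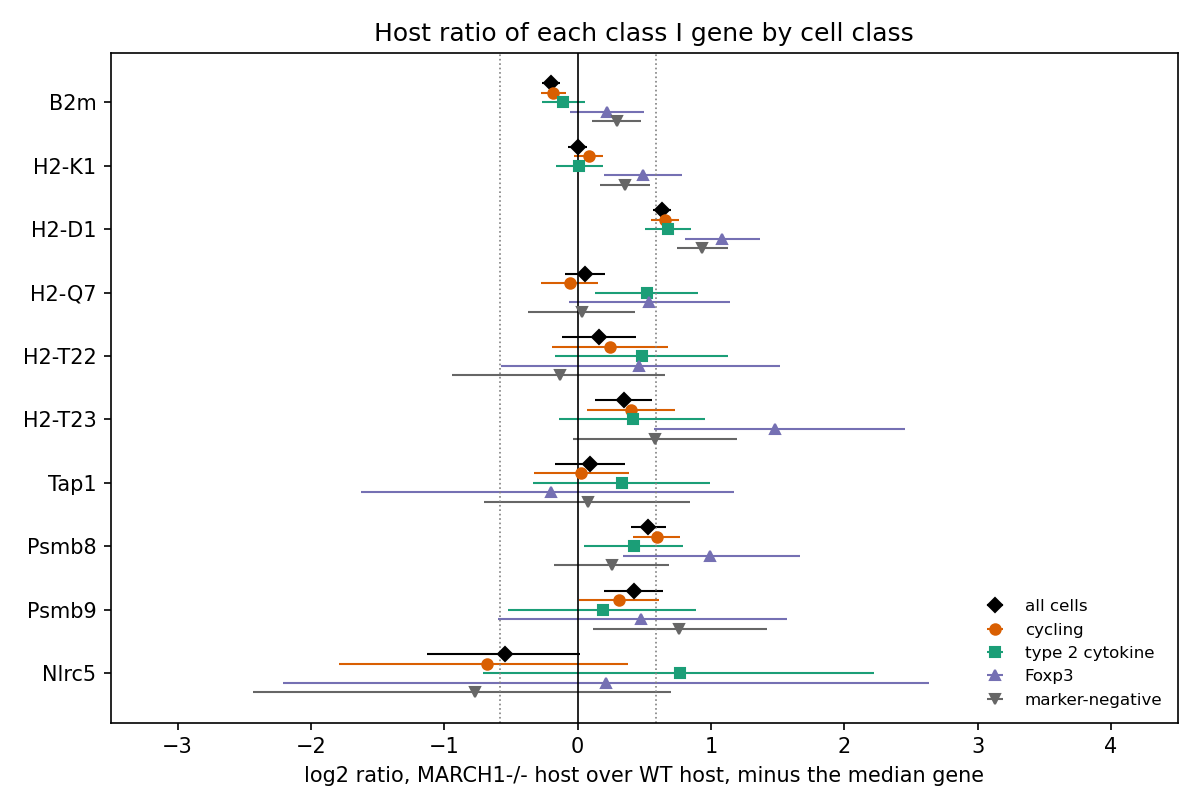
Log2 ratio of each class I gene, MARCH1-/- host over WT host, minus the median gene, over all cells (black) and in 4 classes; bars are 95% counting intervals and dotted lines mark 1.5-fold. H2-D1 points lie to the right of the 1.5-fold line in all cells and all 4 classes, while B2m points lie on both sides of 0.

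Cycling cells gave a smaller share of their transcripts to the heavy chains and B2m than non-cycling cells did, in each library, and not to Tap1, Psmb8 and Psmb9. The member sum was 6488 CPM in cycling and 10108 CPM in non-cycling cells of the MARCH1-/- host library, which is -0.64 as a log2 ratio. In the WT host library it was 4714 CPM in cycling and 6931 CPM in non-cycling cells, a log2 ratio of -0.56. Cycling cells were deeper, so per cell they held more of these UMIs and not fewer: 101 in cycling and 62.3 in non-cycling cells from the MARCH1-/- host, and 55.7 and 36.6 in those from the WT host. A lower share is thus not a lower number of captured molecules per cell.

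By member, relative to the median gene of the contrast (-0.06 in the MARCH1-/- host library and -0.09 in the WT host library), H2-K1 was at -0.86 in cycling over non-cycling cells of the MARCH1-/- host library and at -0.76 in those of the WT host library. H2-D1 was at -0.59 and -0.45, B2m at -0.56 and -0.42, H2-T22 at -0.91 and -0.80, H2-T23 at -0.80 and -0.67, and H2-Q7 at -0.59 and -0.21, in the same order of libraries. The light chain and all 5 heavy chains were thus lower as a share in cycling cells of both libraries. Tap1 was at -0.17 and 0.03, Psmb9 at -0.15 and 0.14, and Psmb8 at 0.20 and 0.05, near the median gene. Nlrc5 had 12.8 CPM in cycling and 48.2 CPM in non-cycling cells of the MARCH1-/- host library, and 17.1 CPM and 45.2 CPM in the WT host library. Its relative ratios of -1.85 and -1.31 rest on 13 UMIs in cycling cells of the MARCH1-/- host and 22 in those of the WT host.

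Of the 9 members with at least 50 UMIs in this contrast of the MARCH1-/- host library, 5 were at least 1.5-fold lower in cycling cells, against 17.7% of genes, and 0 higher, against 20.6%. Of these 5, H2-D1 (-0.585) and H2-Q7 (-0.586) lie on the 1.5-fold limit itself. In the WT host library 4 of 10 were lower, against 14.7%, and 0 higher, against 17.4%. The sum of Tap1, Psmb8 and Psmb9 alone, a split chosen after these values were seen, had log2 ratios of 0.01 in the MARCH1-/- host library and -0.03 in the WT host library. For the heavy chains with B2m the same ratios were -0.72 and -0.61. Other genes of the pathway were not alike either. The constitutive catalytic subunits, which Psmb8, Psmb9 and Psmb10 replace, were higher as a share in cycling cells: Psmb5 at 0.71 in the MARCH1-/- host library and 0.66 in the WT host library, Psmb6 at 0.87 and 0.90, and Psmb7 at 0.73 and 1.06.

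**Figure D4:**
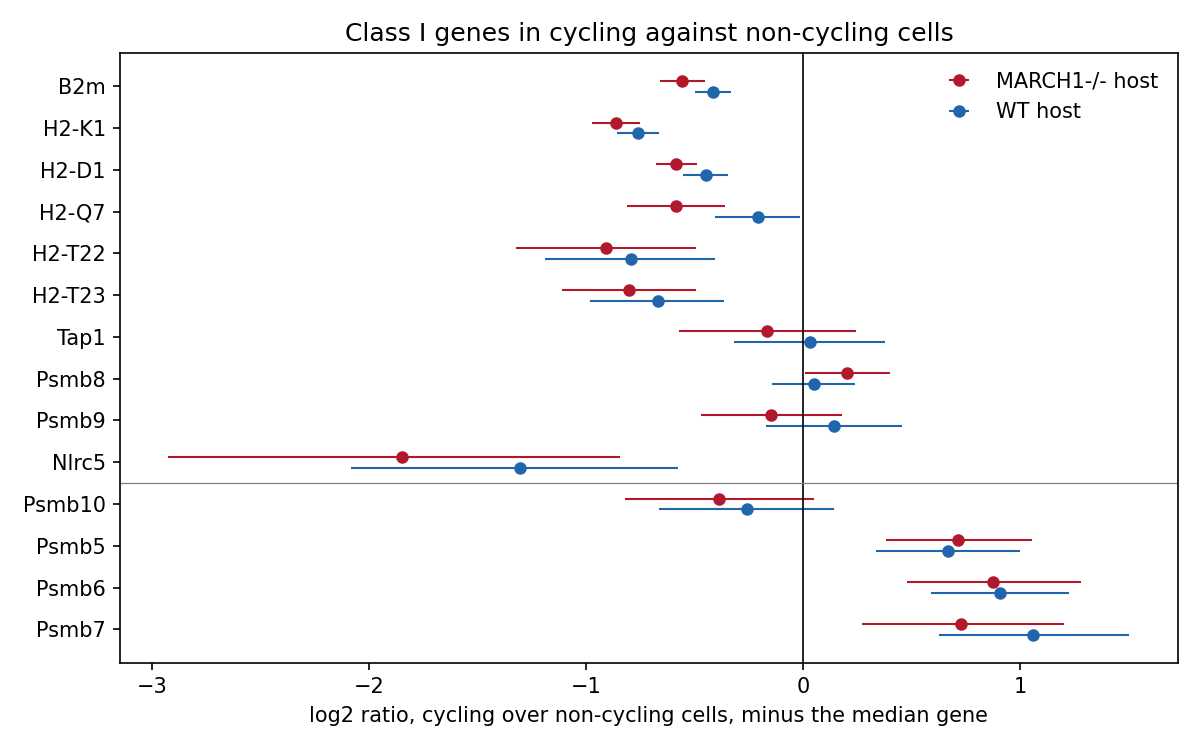
Log2 ratio of cycling over non-cycling cells, minus the median gene, for the class I genes (above the line) and 4 other genes, in the MARCH1-/- host library (red) and the WT host library (blue), with 95% counting intervals. The heavy chains, B2m and Nlrc5 lie left of 0 in both libraries, Tap1, Psmb8 and Psmb9 lie near 0, and Psmb5, Psmb6 and Psmb7 lie right of it.

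Across the non-cycling classes given here the member sum varied less than between cycling and non-cycling cells. In the MARCH1-/- host library it was 9339 CPM in type 2 cytokine, 12141 in Foxp3, 11822 in type 1 and 11132 CPM in cells with several marker kinds, against 10146 CPM in marker-negative cells. In the WT host library it was 7185, 7409, 7541 and 7023 CPM in the same classes, against 6434 CPM in marker-negative cells. In each of these classes the value from the MARCH1-/- host was the higher, though 2 of them held under 10 cells. The order of these classes was not the same in the 2 libraries.

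Type 2 cytokine cells, the helper class of allergic inflammation, had a member sum close to that of marker-negative cells. The log2 ratio of type 2 cytokine over marker-negative cells was -0.12 (-0.22 to -0.02) in the MARCH1-/- host library and 0.16 (0.07 to 0.25) in the WT host library. The WT host value turned to -0.06 when cells were thinned to 1000 UMIs. In the MARCH1-/- host library 0 of 9 members were 1.5-fold higher in type 2 cytokine cells, against 10.8% of genes, and 1 was lower, Psmb9, against 11.1%. In the WT host library 0 were higher, against 10.9%, and 0 lower, against 11.4%.

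Foxp3 cells, which carry the transcription factor of regulatory T cells, were at 0.26 and 0.20 over marker-negative cells in the MARCH1-/- host and the WT host library. In the MARCH1-/- host library 1 of 7 members was 1.5-fold higher, H2-T23, against 12.8%, and 0 lower, against 10.8%. The WT host library had 0 of 8 higher, against 12.6%, and 0 lower, against 13.1%. The type 1 and several classes had enough cells in the WT host library alone. Type 1 cells there had 1 of 8 higher, H2-T23, against 9.28%, and 0 lower, against 6.89%. Cells with several marker kinds had 0 of 9 higher, against 9.14%, and 0 lower, against 8.58%.

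Other genes of the pathway, in lists chosen by name, were split in direction between the hosts. Of 13 other class I and class I-like chains in the files, 3 had at least 50 UMIs. H2-Q6, a chain close to H2-Q7, had 52 UMIs or 33.0 CPM in the MARCH1-/- host library and 231 UMIs or 89.8 CPM in the WT host library, and H2-Q4 had 53.3 CPM in the MARCH1-/- host library and 91.8 CPM in the WT host library. Both ran opposite to H2-Q7, and both were at least 1.5-fold lower in all 4 classes, as were 3.39% of all genes. The class values rest on few UMIs. In cells from the MARCH1-/- host H2-Q6 had 10 in type 2 cytokine, 5 in Foxp3 and 6 in marker-negative cells. H2-Q4 had 43 over all non-cycling cells from that host. The ratio of H2-Q7 to H2-Q6 UMIs was 12.6 in the MARCH1-/- host library and 3.74 in the WT host library. The 3' ends of H2-Q6 share 38.0% of their 60-base words with other genes, H2-Q7 first (23.4%). Those of H2-Q7 share 9.86%, with H2-Q5 as the only gene listed. H2-Q6 and H2-Q7 were also summed, a sum chosen after these values were seen. It was 449 CPM in the MARCH1-/- host library and 426 CPM in the WT host library, a relative log2 ratio of -0.18 (-0.32 to -0.04). Whether reads split between these 2 copies or their expression differs was not tested. The genes listed first for the shared words of H2-Q4 (24.7%) are outside this family.

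The peptide loading genes had a median relative ratio of 0.26 over 7 genes, with 1 at least 1.5-fold higher (12.6% of all genes) and 0 lower (15.1%), which is near the background. That gene was Tapbpl, an editor of the bound peptides, with 31.7 CPM in the MARCH1-/- host library and 13.2 CPM in the WT host library. Tap2, the partner of Tap1, had 107 CPM in the MARCH1-/- host library and 63.0 CPM in the WT host library, and the chaperone Calr had 431 CPM in the MARCH1-/- host library and 272 CPM in the WT host library. Tapbp, tapasin, had 136 CPM in the MARCH1-/- host library and 131 CPM in the WT host library. The list thus held genes near B2m and genes near Psmb8 in their ratio.

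Among 5 partners of the immunoproteasome the median relative ratio was -0.11, with 0 at least 1.5-fold higher (12.6% of all genes) and 1 lower (15.1%), again near the background. Psme1, a subunit of the proteasome activator PA28, had 353 CPM in the MARCH1-/- host library and 653 CPM in the WT host library, a log2 ratio of -0.89 (-1.03 to -0.75). It was at least 1.5-fold lower in each of the 4 classes, with relative ratios from -1.30 to -1.001. Its partner Psme2 was nearly level, at 326 CPM in the MARCH1-/- host library and 294 CPM in the WT host library, and the Psme1 to Psme2 ratio was 1.08 in the MARCH1-/- host library and 2.22 in the WT host library. Psme2 shares 50.2% of its 3' words with its copy Psme2b, so its level is uncertain. The 3 constitutive catalytic subunits had a median relative ratio of 0.51, with 1 at least 1.5-fold higher (12.6% of all genes) and 0 lower (15.1%). With 3 genes this count cannot be read as a result about the subunits. The gene past the limit was Psmb5, at 246 CPM in the MARCH1-/- host library and 125 CPM in the WT host library. Psmb8 to Psmb5, the subunit it replaces, was 2.48 in the MARCH1-/- host library (2.20 to 2.79) and 2.84 in the WT host library (2.50 to 3.24), although Psmb5 shares 50.3% of its 3' words with a copy.

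Over all cells, lists of class I regulators and interferon genes had 1.5-fold counts near the background, and they differed in direction between classes. Ifng, the cytokine that induces the pathway, had 33 UMIs or 20.9 CPM in the MARCH1-/- host library and 156 UMIs or 60.7 CPM in the WT host library. Of 18 regulators, 14 had at least 50 UMIs, with 2 at least 1.5-fold higher (Ifnar1 and Rfxap), against 12.6% of all genes, and 2 lower (Irf9 and Irf2), against 15.1%. Their median relative ratio was -0.18, with 8 below the median gene and 6 above it. Of 18 interferon-stimulated genes, 16 had at least 50 UMIs, with 0 higher, against 12.6%, and 3 lower (Iigp1, Rsad2 and Irf7), against 15.1%. Their median was -0.25, with 12 below the median gene and 4 above it. By class, 14 of these 16 were above the median gene in type 2 cytokine cells and 10 of the 14 with UMIs in both libraries in Foxp3 cells, but 1 of 16 in cycling and 0 of 16 in marker-negative cells. The class medians were 0.64 in type 2 cytokine, 0.58 in Foxp3, -0.55 in cycling and -0.93 in marker-negative cells. Many of these genes had few UMIs in a class: Gbp2, a guanylate-binding protein, had 21 UMIs in type 2 cytokine cells from the MARCH1-/- host and 10 in those from the WT host. That the direction differs between classes was not tested. Class II genes were scarce: 2 of 7 had at least 50 UMIs, and Cd74 had 50 UMIs in the MARCH1-/- host library and 43 in the WT host library. Cells with at least 5 UMIs of B cell, myeloid or class II genes were 48 of 156 from the MARCH1-/- host and 36 of 352 from the WT host. By class II genes alone, 4 cells from the MARCH1-/- host and 5 from the WT host had at least 5 UMIs. A deeper cell passes a fixed limit more easily, so these are not counts of antigen-presenting cells. Without the 48 and 36 cells the member sum had a log2 ratio of 0.52, and H2-D1 a relative ratio of 0.70.

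**Figure D5:**
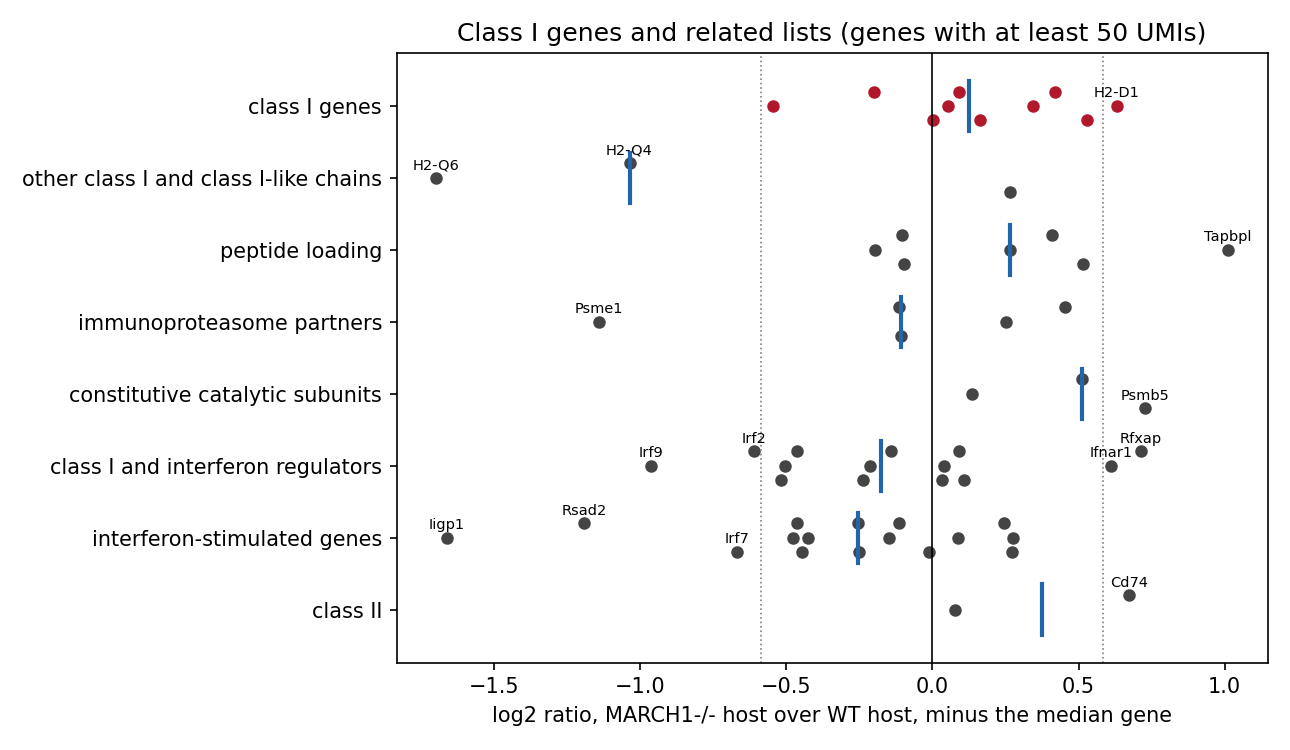
Log2 ratio, MARCH1-/- host over WT host, minus the median gene, of the class I genes (red) and of genes in 7 related lists (grey), each with at least 50 UMIs; blue ticks are list medians, dotted lines mark 1.5-fold and genes past it are named. H2-D1 stands past the upper line, and H2-Q6, H2-Q4 and Psme1 stand past the lower one.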

How the data were processed

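Libraries came from polyadenylated RNA and the 10x Chromium 3' kit (v3.1), per the labels' protocols. The deposited files hold raw UMI counts per gene and barcode with no normalization, per the file headers. The submitters' processing notes name Cell Ranger 3.1.0 and build mm10, but version 4 of that program stands in the matrix headers; the sources used here give neither which made the counts nor the annotation. All barcodes were deposited, 1934068 UMIs in the MARCH1-/- host library and 3753437 in the WT host library. A barcode was used when it had 500 or more UMIs, 250 or more detected genes and no more than 10% of UMIs from mitochondrial genes. Doublets were left in. Scrublet (scanpy 1.11.5, expected rate 0.05) called 5 of 156 and 5 of 352, and these were removed as an alternative.

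UMIs were summed over cells and scaled to counts per 1000000 (CPM). Intervals at 95% are exact: Poisson for sums, conditional binomial for ratios, Clopper-Pearson for shares. They treat UMIs as independent draws. Genes with at least 50 UMIs over the cells compared entered each median and count, and 3 counts were taken as the floor of a 0. No test was possible with 1 library per group. The code was tested on simulated counts. Gene positions and transcript ends came from GENCODE M21 (GRCm38), matched by gene ID. The members and lists were chosen with earlier results of these data known. Genes named are the 10 members and, from each list, up to 6 with the most UMIs and those past 1.5-fold; those past 1.5-fold were named after their values were seen, as was the sum of H2-Q copies. Genes of like pattern were the 5 with the highest Pearson r, over pools, with the mean of the members with at least 200 UMIs. A helper class and some list genes are not reported here. Alternatives changed scaling, depth, cell filters, classes and genes. Computation used numpy 2.4.6, pandas 2.3.3, scipy 1.17.1 and, for plots, matplotlib 3.10.9 under Python 3.11.15.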

Additional observations from a re-analysis of the deposited data

Results flagged for a closer look

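The host ratio of B2m, MARCH1-/- over WT, lay on opposite sides of the median gene in different classes. Its relative log2 ratio was 0.29 in marker-negative cells and -0.18 in cycling cells. The difference between these classes was not tested, and with 1 library per host no test of it is possible.

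Barcodes with over 10% mitochondrial UMIs, outside all comparisons, also held class I transcripts. The members summed to 7174 CPM (6245 to 8202) over 25 such barcodes of the MARCH1-/- host library and to 7875 CPM (7263 to 8526) over 72 of the WT host library. The order of the hosts was opposite to that in the cells, with overlapping intervals.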

How the results depend on the processing

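No paired analysis was possible because each group has 1 library and the labels carry no replicate numbers. For the same reason no library could be left out. Of 243 recomputed values, 79 for the main comparisons and 112 for single genes stayed within the counting interval, or within 1.5 times the count. Where that interval takes in 0 the sign could change, and some of these values changed sign. For example, the relative ratio of H2-T22 (0.16) was -0.037 in thinned cells. The log2 ratio of the member sum (0.42) stayed above 0 in all 15 alternatives, at 0.32 without ribosomal and mitochondrial UMIs in the total, 0.54 without cycling cells, 0.46 in cycling cells alone, 0.52 without cells with B cell, myeloid or class II UMIs, 0.55 with classes weighted alike, 0.26 without H2-D1 and 0.23 without the heavy chains. Relative to the median gene (0.17) it was 0.23 as a mean over cells, 0.30 in thinned cells, 0.32 without cycling cells, 0.25 without cells with B cell, myeloid or class II UMIs, 0.29 with classes weighted alike, 0.0063 without H2-D1, and -0.027 without the heavy chains, which carry most of the members' UMIs. The median of members (0.38) was 0.56 without cycling cells. The count of members at least 1.5-fold higher (1) was 2 as a mean over cells, without cycling cells, in cycling cells alone and with classes weighted alike, 0 without H2-D1, without the heavy chains or past 2-fold, and 4 without subtracting the shift. The count lower was 0 in all 20 alternatives, but a limit of 2-fold or fewer members could not have raised it. H2-D1 stayed between 0.63 and 0.79 relative in 13 alternatives. Among the alternatives, leaving ribosomal and mitochondrial UMIs out of the total cannot change a relative value or a count made relative to the median gene. B2m (-0.20) turned to 0.081 in thinned cells, and Nlrc5 (-0.55) to 0.71 in thinned cells and 0.15 with classes weighted alike. The cause was not tested.

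For cycling over non-cycling cells of the MARCH1-/- host (-0.64) the values were -0.56 and -0.72 with at least 2 and at least 5 cycling genes, -0.56 as a mean over cells, 0.0061 for Tap1, Psmb8 and Psmb9 alone and -0.72 for the heavy chains with B2m. For the WT host (-0.56) they were -0.46 with at least 2 genes, -0.030 for Tap1, Psmb8 and Psmb9 alone and -0.61 for the heavy chains with B2m. These splits by gene and the sum without H2-D1 were added after seeing the data. Type 2 cytokine over marker-negative cells gave -0.22 with at least 2 marker UMIs in the MARCH1-/- host library (-0.12), and -0.062 in thinned cells and 0.058 as a mean over cells in the WT host library (0.16). The cause of these moves was not tested. Depth limits Nlrc5 most, at 40 and 80 UMIs.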

Other observations

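Genes whose pattern was most like that of the members were sought over 11 pools of cells (library by class), among 2902 genes with at least 200 UMIs. The 5 with the highest Pearson r were Maf1 (0.96), Tpt1 (0.95), Gimap1 (0.95), Cd3g (0.94) and Bod1l (0.94). The pools share 2 libraries and differ in depth, so these values only describe them. Of these genes, Tpt1 was the most abundant, with 7056 CPM in the MARCH1-/- host library and 4779 CPM in the WT host library. The mean profile was formed by the members with at least 200 UMIs. Against it the members ran from 0.22 for Nlrc5, which is below that minimum and not part of the mean, to 0.97 for H2-D1.

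Across single cells thinned to 3000 UMIs, the Spearman correlation of B2m with H2-K1 was 0.54 over 149 cells from the MARCH1-/- host and 0.35 over 305 cells from the WT host. That of H2-K1 with H2-D1 was 0.50 and 0.26. These values mix cycling and non-cycling cells. In non-cycling cells B2m with H2-K1 gave 0.51 and 0.28, and H2-K1 with H2-D1 gave 0.43 and 0.18. In cycling cells the same pairs gave 0.45 and 0.35, and 0.38 and 0.25. H2-D1 averaged 8.17 UMIs per thinned cell from the MARCH1-/- host and 4.07 from the WT host. A host difference in its correlation cannot be told apart from this difference in level. Over all cells, Psmb8 with Psmb9 gave 0.20 and 0.10, where both genes average under 3 UMIs per thinned cell. The cells of a library share its preparation, and no test was made.

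The variance over the mean of UMIs among cells differed between members. After thinning to 1000 UMIs it was 1.79 for H2-K1 in the MARCH1-/- host library and 1.45 in the WT host library. In the same order it was 1.64 and 1.22 for H2-D1, 1.22 and 1.30 for B2m, and 1.59 and 1.27 for H2-Q7. Psmb8 had 0.95 and 1.01, where 1 is what random sampling of UMIs gives. This measure depends on the mean, which was 2.04 and 1.70 UMIs for H2-K1 and 0.56 and 0.36 for Psmb8. H2-Q7 had means of 0.53 and 0.40. Cycling and non-cycling cells are mixed in it, so the values do not rank the members by variation.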
